A study of Homo sapiens with 6 samples.

Results

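Ribosomal protein genes were examined through 124 annotated skipped-exon events, out of 47986 in the whole series. An event was taken when its middle exon lay, on the same strand, in a protein-coding GENCODE 29 gene whose symbol starts with RPL or RPS and a digit, or with RPLP, or is RPSA, RPS6K symbols left out. It also needed at least 20 informative reads, meaning reads of the exon's inclusion isoform alone or its exclusion isoform alone, in siCtrl and in at least 1 knockdown pool. Of 145 events that fit by symbol, 21 missed this read minimum, 14 of them in RPL36. Just inside the minimum in siCtrl lay exons of RPL34 with 22 informative reads and RPL37A with 23, and just outside it an event of RPL37A with 19. The 124 events hold 118 distinct skipped exons at 80 non-overlapping places in 50 genes, 30 of the large subunit (RPL and RPLP symbols) and 20 of the small one (RPS symbols). The symbol rule also takes in RPS19BP1, which encodes a binding partner of RPS19 and no ribosomal protein, the read-through gene RPS10-NUDT3, and the relatives RPL7L1, RPL39L and RPS27L. By annotation 57 exons are coding, 35 partly coding, 9 in the 5′ UTR and 15 in transcripts without a reading frame, and 2 match no annotated exon. Their lengths run from 3 to 2787 nt (median 106), 38 are a multiple of 3, and 37 events contain a snoRNA.

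The cells were MDA-LM2, an established human line derived from lung metastases of the breast cancer line MDA-MB-231. They carried siRNAs from IDT, given with a lipofectamine reagent, against SNRPA1 (siSNRPA1, 3 libraries), against SNRPB (siSNRPB, 1 library) or control siRNA (siCtrl, 2 libraries), and total RNA was taken at 48 h. SNRPA1 is a protein of the U2 snRNP, the particle that binds the branch point of an intron, and SNRPB is a core protein shared by the spliceosomal snRNPs. The design text names several siRNAs against SNRPA1 without tying them to libraries. For SNRPB it speaks of 2 siRNAs while the labels give 1 library, and it once writes SNRPB2, whereas the labels' name is kept here. The deposited values are 1 pooled set per group, so no value below has a replicate.

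The cytosolic ribosome is built from ribosomal RNA and a large set of ribosomal proteins, which cells make in nearly equal amounts and at very high levels. Their genes are short, many host small nucleolar RNAs (snoRNAs) in their introns, and most have left processed copies, intronless pseudogenes that resemble the spliced mRNA. Several human ribosomal protein genes, RPL3 and RPL12 among them, are known to limit their own output by shifting splicing towards transcripts that nonsense-mediated decay removes.

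Of the 50 genes, 46 had at least 1 annotated processed copy (median 9 a gene, at most 66 for RPL21). For 92 of the 118 exons, 40 bases across a splice junction were found with at most 2 mismatches in a transcript of another locus. The skip junction itself was found elsewhere for 27 of the 124 events. Inclusion reads could therefore come from copies where an inclusion junction was found elsewhere, and exclusion reads where the skip junction was.

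The exons whose sequences are shown carry the results that follow. They were read from GENCODE 29 transcripts (hg38), 5′ to 3′ on the gene's strand. In RPS24 the 22-nt exon opens with the stop codon, in capitals, and the exon after it holds the stop codon that is used when the 22-nt exon is skipped.
RPS24 22-nt exon, chr10:78040204-78040225, plus strand: TGAgctggagattggatcacag
RPS24 start of the next exon, chr10:78040615-78040632, plus strand: ccgaaggagTAAaggtgc
RPL24 has a coding exon whose length is not a multiple of 3, shown whole, and a skip junction in which capitals mark the exon after it.
RPL24 64-nt exon, chr3:101682429-101682492, minus strand: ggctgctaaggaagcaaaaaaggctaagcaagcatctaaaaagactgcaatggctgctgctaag
RPL24 skip junction: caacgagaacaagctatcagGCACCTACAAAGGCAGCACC
The RPL17 exon lies in the 5′ UTR and has 2 forms that end 10 bases apart, and its last 30 bases are shown with the part held only by the longer form in capitals.
RPL17 98-nt exon, end, chr18:49491736-49491765, minus strand: aaagggaaagcaagcccttgGTGGGGGAAA
RPLP0 and RPS3 have forms with different starts, and capitals mark the shorter, 78-nt and 95-nt, form.
RPLP0 186-nt exon, chr12:120198554-120198739, minus strand: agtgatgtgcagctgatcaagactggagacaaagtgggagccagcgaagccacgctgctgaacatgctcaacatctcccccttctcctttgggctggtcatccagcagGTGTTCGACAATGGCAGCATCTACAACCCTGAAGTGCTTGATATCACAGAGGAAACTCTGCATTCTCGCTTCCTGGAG
RPS3 143-nt exon, chr11:75402304-75402446, plus strand: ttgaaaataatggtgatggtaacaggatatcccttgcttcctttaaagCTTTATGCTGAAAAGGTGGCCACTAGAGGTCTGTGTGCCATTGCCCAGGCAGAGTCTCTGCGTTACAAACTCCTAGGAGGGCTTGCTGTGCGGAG

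Over all events the pools held 7831446 informative reads in siSNRPA1, 3396043 in siSNRPB and 5707839 in siCtrl. Both targets were low in their own pools. Reads over SNRPA1 events came to 21.9 per 1000000 reads that fit an isoform in siSNRPA1, 272 in siSNRPB and 118 in siCtrl, and those over SNRPB to 337 in siSNRPA1, 30.6 in siSNRPB and 247 in siCtrl. CD44, ZEB1, FN1 and AXL, genes of a mesenchymal-like line, had 77.8 to 3540 reads per 1000000 in the pools, whereas ESR1, PGR, CDH1, ESRP1, PTPRC and CD3E had at most 4.15. SPARC stood low at 2.27 to 3.62 and GATA3 at 15.3 to 22.1, and VIM, MSN, CAV1 and KRT19 had no event.

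Reads over ribosomal protein events took up 63728 of every 1000000 isoform-fitting reads in siSNRPA1, 60596 in siSNRPB and 65628 in siCtrl. The 95% Wilson intervals, which cover counting error only, were 63636 to 63819 in siSNRPA1, 60458 to 60735 in siSNRPB and 65515 to 65740 in siCtrl. The order differed in the 4 genes without a processed copy, which had 224 in siSNRPA1, 248 in siSNRPB and 226 in siCtrl, with siSNRPB highest. They are RPL39L, RPS10-NUDT3, RPS19BP1 and RPS27L, which the symbol rule takes in as relatives, read-through gene or binding partner. All genes outside these 4 have a copy, so this order says nothing of them. Over all ribosomal protein exons kept, the median number of informative reads was 2137 in siSNRPA1, 895 in siSNRPB and 1483 in siCtrl. RPS3, whose protein lines the mRNA entry channel, had the most reads, with 8265 per 1000000 in siSNRPA1, 8970 in siSNRPB and 9861 in siCtrl. RPLP0, the base of the stalk that recruits translation factors, followed with 4922 in siSNRPA1, 4194 in siSNRPB and 5560 in siCtrl. By reads in siCtrl, RPS2, a neighbour of RPS3 at the entry channel, came next, with 4360 in siSNRPA1, 4125 in siSNRPB and 4463 in siCtrl. RPL35, a large-subunit gene, lay close to it and above it in siSNRPA1, with 4471 in siSNRPA1, 4105 in siSNRPB and 4403 in siCtrl. A read counts once in each event it falls in, and RPS3 has 8 exons here, RPLP0 6, RPS2 7 and RPL35 2. The order of the genes is therefore not an order of RNA abundance. In a bulk pool, a lower value cannot tell fewer cells with the RNA from less of it per cell.

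The ratio of siSNRPA1 to siCtrl had a median of 1.02 over the 50 genes and ranged from 0.838 in RPS3 to 1.25 in RPS27, with 32 of 50 genes above 1, beside 50.02% of all genes. Over the 7513 genes of the series that reached 200 of these reads in any pool, the median was 1.00 and the 5th to 95th percentile ran from 0.630 to 1.45. The ratio of siSNRPB to siCtrl had a median of 0.949, with 15 of 50 genes above 1, beside 44.3% above 1 and a median of 0.957 over all genes and a 5th to 95th percentile of 0.446 to 1.58. It was lowest in RPS29, at 0.342, followed by RPS14 at 0.668. The RPS29 ratio rests on 1 exon with 256 reads in siSNRPB and 1211 in siCtrl. In siSNRPB, 99.98% of the reads in that event fit neither isoform. Ratios could not be tested, and the 2 sets share siCtrl.

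**Figure D1:**
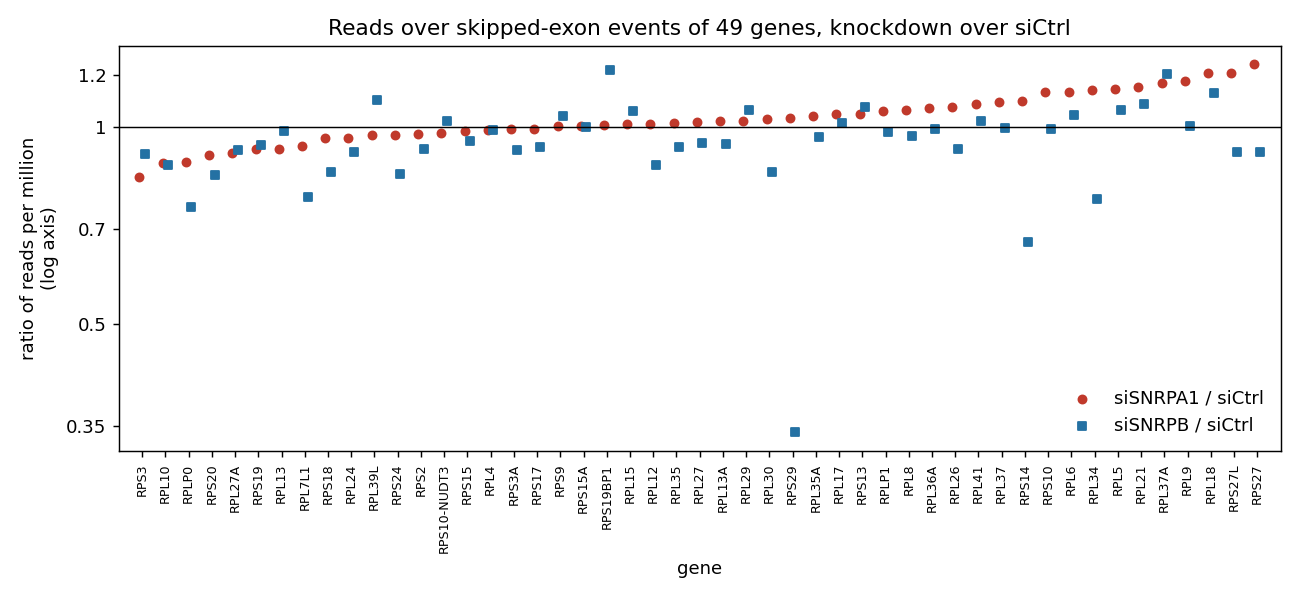
Ratio of reads per 1000000 isoform-fitting reads, siSNRPA1 over siCtrl (circles) and siSNRPB over siCtrl (squares), for 49 of the 50 genes in order of the siSNRPA1 ratio, on a log axis. The siSNRPA1 ratios lie between 0.838 and 1.25, and RPS29 stands apart at 0.342 in siSNRPB, where it had 256 reads.

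Most of these exons were either nearly always in or nearly always out. In siSNRPA1, 66 of the 118 exons had at least 99% inclusion reads, 22 had at most 1%, and 30 lay between. In siSNRPB the same numbers were 65, 24 and 26 of the 115 exons with at least 20 informative reads, and in siCtrl they were 72, 22 and 24 of 118. Over all exons of the series with this read minimum in siCtrl, 11333 of 18953 had at least 99% inclusion reads and 1535 at most 1%. Of the 51 exons coding in a protein-coding transcript, 39 in siSNRPA1, 39 in siSNRPB and 42 in siCtrl had at least 99% inclusion reads.

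The inclusion level deposited by the authors, a fraction from 0 to 1, often stood well under this read share. Of the 72 exons with at least 99% inclusion reads in siCtrl, 33 (45.8%) had a level under 0.9, and 17 had a level under 0.5. Among all exons of the series with such shares in siCtrl, 33.5% had a level under 0.9. RPL12, a stalk protein gene, shows the gap in its 99-nt coding exon (chr9:127449610-127449708). It had 4546 inclusion and 0 exclusion reads in siSNRPA1, 1896 and 6 in siSNRPB and 3742 and 0 in siCtrl, with levels of 0.23 in siSNRPA1, 0.27 in siSNRPB and 0.29 in siCtrl. A low level in these genes is thus not by itself a record of reads that skip the exon, and reads are given beside each level below.

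**Figure D2:**
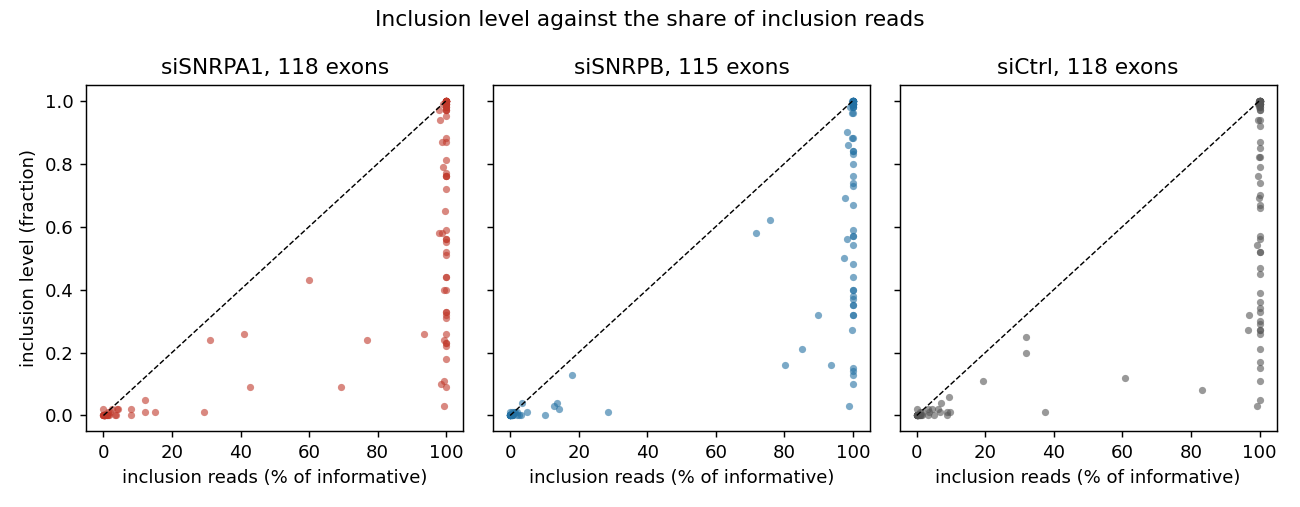
Inclusion level (fraction) against inclusion reads as a percentage of informative reads, 1 point per exon, in siSNRPA1 (118 exons), siSNRPB (115) and siCtrl (118). The dashed line marks equal values, and the column of points at the right edge holds exons with nearly no exclusion read and levels from near 0 to 1.

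Whether the knockdowns changed inclusion was tested by comparing inclusion and exclusion reads between 2 pools (Fisher's exact test, two-sided), with Benjamini-Hochberg adjustment over every tested exon of the series. To pass, an exon needed an adjusted p below 0.05 and a level that moved the same way as its reads by 0.1 or more, and only such exons are said to have risen or fallen. The test compares pools of reads, not conditions with replicates. In siSNRPA1 against siCtrl, 55 ribosomal protein exons could be tested, of which 2 rose and 2 fell (7.27%). Over all 6459 tested exons, 17.0% passed, 4.18% higher and 12.8% lower. In siSNRPB against siCtrl, 2 of 43 tested exons rose and 1 fell (6.98%), where 21.3% of 4244 passed, 4.62% higher and 16.7% lower. In siSNRPA1 against siSNRPB, 2 of 47 rose and 3 fell (10.6%), where 14.7% of 5082 passed, 8.28% higher and 6.38% lower. The median difference in level was 0 over the members in each comparison, and -0.02, -0.01 and 0 over all tested exons in the same 3 comparisons. The remaining 63, 75 and 71 of the 118 exons had too few reads of one class, or too few informative reads in a pool, to be tested.

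RPL17, a large-subunit protein at the wall of the peptide exit tunnel, gave the widest differences, in a 5′ UTR exon that is not translated. The 98-nt form (chr18:49491736-49491833) had 82 inclusion and 55 exclusion reads in siSNRPA1, 63 and 20 in siSNRPB, and 16 and 67 in siCtrl. Its level was 0.43 in siSNRPA1, 0.62 in siSNRPB and 0.11 in siCtrl, and inclusion reads outnumbered exclusion reads in both knockdown pools and not in siCtrl. It rose by 0.32 in siSNRPA1 (adjusted p = 1.24e-07, Fisher's exact test) and by 0.51 in siSNRPB (adjusted p = 2.03e-11, Fisher's exact test) against siCtrl.

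The 88-nt form of the same exon shares its exclusion reads, so it is no independent result. It had 38 inclusion reads in siSNRPA1, 51 in siSNRPB and 7 in siCtrl, and levels of 0.26 in siSNRPA1, 0.58 in siSNRPB and 0.06 in siCtrl. It rose in both knockdowns against siCtrl and was lower by 0.32 in siSNRPA1 than in siSNRPB (adjusted p = 0.00140, Fisher's exact test). The 98-nt form did not pass that last comparison (adjusted p = 0.0639, Fisher's exact test). Further annotated events hold the 88-nt form between other neighbouring exons. There it rose against siCtrl by 0.51 and 0.23 in siSNRPA1 and by 0.5 and 0.34 in siSNRPB. None of those further events passed between the knockdowns, so that difference rests on the event kept. Exclusion reads of this exon came to 2.01 per 1000000 isoform-fitting reads in siSNRPA1, 1.74 in siSNRPB and 3.61 in siCtrl. Its junctions were found in no other locus. The gene AC100778.3 overlaps it on the other strand, and SNORD58B lies within the event; their part in the result was not tested.

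Nearer the 3′ end of RPL17, a partly coding 67-nt exon was included throughout. It had no exclusion read among 5105 informative reads in siSNRPA1, 2220 in siSNRPB and 3572 in siCtrl, and a level of 1 in every pool.

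RPL34, another large-subunit gene, has a 66-nt exon in the 5′ UTR (chr4:108621631-108621696). All 37 informative reads skipped it in siSNRPA1 and all 14 did in siSNRPB, against 15 of 22 in siCtrl. Its level was 0.02 in siSNRPA1, 0.06 in siSNRPB and 0.20 in siCtrl, and it fell in siSNRPA1 (difference -0.18, adjusted p = 0.00363, Fisher's exact test). In siSNRPB the exon had too few reads for the test. In the authors' deposited table its Bayes factor was 9.43 for siSNRPA1 against siCtrl, just under the 10 used below. The call rests on 7 inclusion reads in siCtrl, and a count of 0 in 37 reads still allows a share of up to 8.11%.

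**Figure D3:**
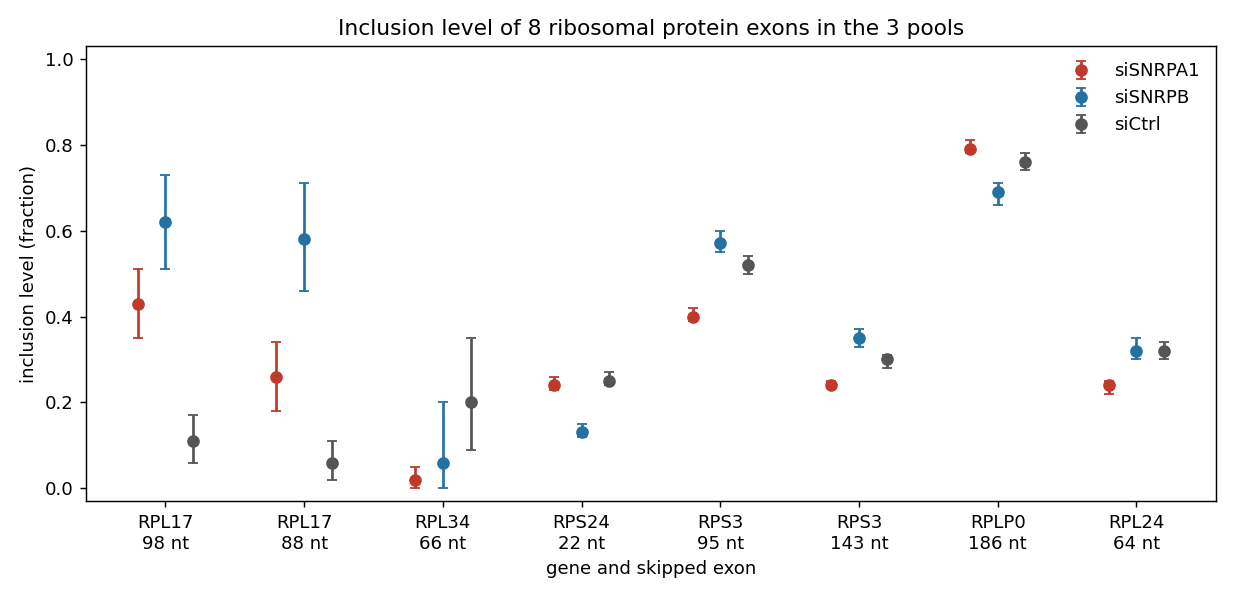
Inclusion level (fraction) of 8 exons in siSNRPA1, siSNRPB and siCtrl, in that order within each exon; bars are the authors' intervals, whose width is not stated. The RPL17 forms stand at 0.06 and 0.11 in siCtrl, under both knockdowns, and the RPS24 exon is lowest in siSNRPB at 0.13.

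RPS24, a small-subunit gene mutated in Diamond-Blackfan anaemia, ends its protein in different ways through short alternative exons. The first codon of the 22-nt exon is a stop codon, giving 130 or 131 codons in annotated transcripts, and without it the reading frame runs 9 bases into the next exon, giving 133 codons. The exon had 1095 inclusion and 2422 exclusion reads in siSNRPA1, 202 and 920 in siSNRPB, and 773 and 1642 in siCtrl. Exclusion reads thus made up 68.9% in siSNRPA1 (95% Wilson interval 67.3 to 70.4%), 82.0% in siSNRPB (79.6 to 84.1%) and 68.0% in siCtrl (66.1 to 69.8%). The level was 0.24 in siSNRPA1, 0.13 in siSNRPB and 0.25 in siCtrl, so the siSNRPB pool stood apart from the other two, whose intervals overlap.

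The 22-nt exon fell in siSNRPB against siCtrl (difference -0.12, adjusted p = 2.48e-16, Fisher's exact test). It was higher in siSNRPA1 than in siSNRPB (difference 0.11, adjusted p = 1.56e-15, Fisher's exact test). None of its 3 junctions was found elsewhere. Its exclusion reads came to 88.5 per 1000000 in siSNRPA1, 80.2 in siSNRPB and 88.5 in siCtrl. Its inclusion reads came to 39.99 per 1000000 in siSNRPA1, 17.6 in siSNRPB and 41.7 in siCtrl, so the siSNRPB pool was low in inclusion reads and not high in exclusion reads.

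The other RPS24 exons had levels of at most 0.16 or at least 0.94. The 3-nt exon had no inclusion read among 904 informative reads in siSNRPA1, 184 in siSNRPB and 591 in siCtrl. A 25-nt form that shares the end of the 22-nt exon had 63 inclusion reads in siSNRPA1, 6 in siSNRPB and 58 in siCtrl, with levels of 0.02 in siSNRPA1, 0.01 in siSNRPB and 0.02 in siCtrl. The 133-nt exon had 0 exclusion reads of 2832 in siSNRPA1, 3 of 1078 in siSNRPB and 6 of 1854 in siCtrl. Its levels were 1.00 in siSNRPA1, 0.96 in siSNRPB and 0.94 in siCtrl, and it did not pass.

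RPL24 encodes a large-subunit protein that forms a bridge to the small subunit. Skipping its 64-nt coding exon shifts the frame, and the annotated transcript without it has 121 codons against 157 with it, with the stop codon in the last exon. Reads that skip it numbered 419 of 1809 in siSNRPA1, 80 of 789 in siSNRPB and 37 of 1224 in siCtrl. That is 23.2% in siSNRPA1 (95% Wilson interval 21.3 to 25.2%), 10.1% in siSNRPB (8.22 to 12.4%) and 3.02% in siCtrl (2.20 to 4.14%), with no overlap of the intervals.

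Per 1000000 isoform-fitting reads, the RPL24 skip reads came to 15.3 in siSNRPA1, 6.98 in siSNRPB and 1.99 in siCtrl. Fisher's exact test gave adjusted p-values of 4.73e-58 for siSNRPA1 and 4.00e-09 for siSNRPB against siCtrl, and of 2.87e-13 between the knockdowns. The deposited level, however, was 0.24 in siSNRPA1, 0.32 in siSNRPB and 0.32 in siCtrl, so the exon stayed under the 0.1 difference and did not pass in any comparison. With the share of inclusion reads in place of the level it passed in siSNRPA1 against siCtrl and against siSNRPB, and not in siSNRPB against siCtrl. The skip junction was found in no other locus, while each inclusion junction was found in 6, so inclusion reads from copies, if present, would lower the skip share; this was not tested.

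**Figure D4:**
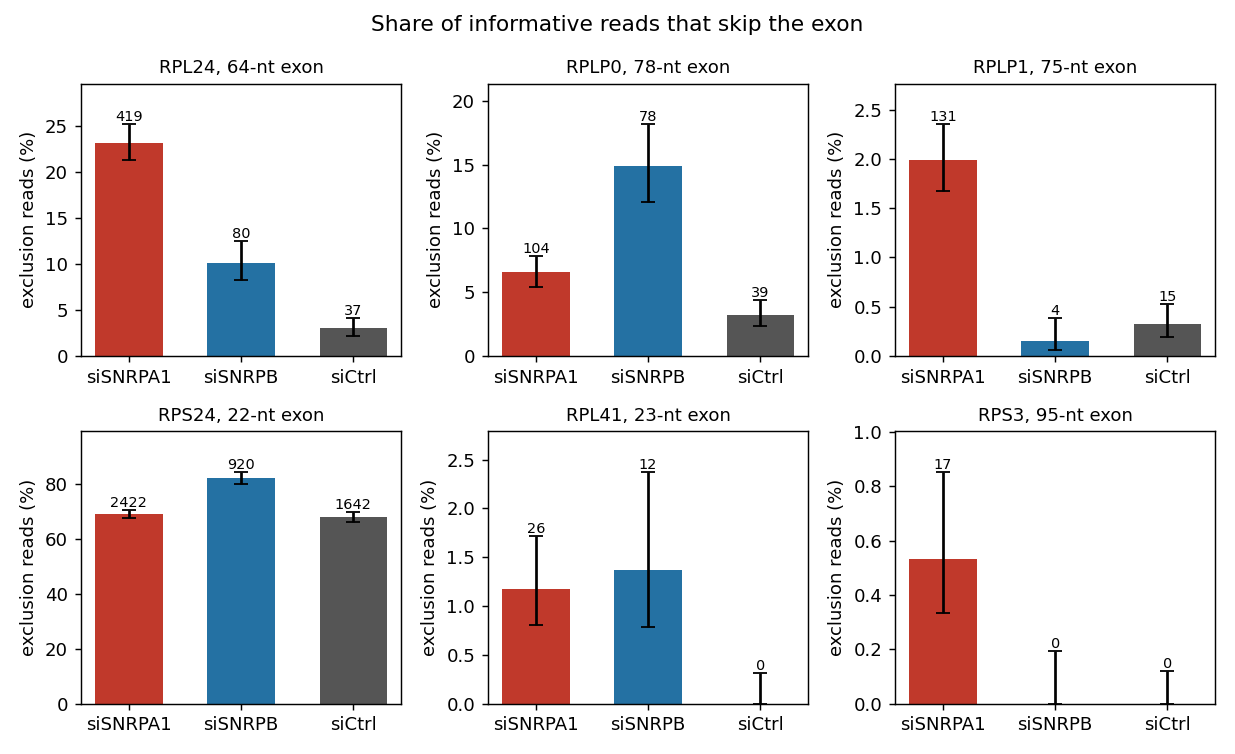
Exclusion reads as a percentage of informative reads in siSNRPA1, siSNRPB and siCtrl for 6 exons, each panel with its own axis from 0; bars show 95% Wilson intervals and numbers are exclusion reads. RPL24 stands at 23.2%, 10.1% and 3.02%, and RPLP0 is highest in siSNRPB at 14.9%.

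The stalk genes RPLP0 and RPLP1 also had skip reads that differed between pools. The 3 forms of 1 RPLP0 exon share the same exclusion reads, 104 in siSNRPA1, 78 in siSNRPB and 39 in siCtrl, or 3.80, 6.80 and 2.10 per 1000000 isoform-fitting reads in that order. For the 78-nt form these made up 6.55% in siSNRPA1, 14.9% in siSNRPB and 3.23% in siCtrl. For the 186-nt form, with 10970 inclusion reads in siSNRPA1, 3553 in siSNRPB and 7990 in siCtrl, they made up 0.939%, 2.15% and 0.486% in the same order.

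Only the 186-nt form passed, and only between the knockdowns. Its level was 0.79 in siSNRPA1, 0.69 in siSNRPB and 0.76 in siCtrl (difference of siSNRPA1 from siSNRPB 0.10, adjusted p = 3.64e-06, Fisher's exact test). Levels of the 78-nt form were 0.26 in siSNRPA1, 0.21 in siSNRPB and 0.27 in siCtrl, and those of the 217-nt form 0.58, 0.50 and 0.54 in the same order. By read share none of the 3 forms reached a difference of 0.1 between siSNRPA1 and siSNRPB, and the 78-nt form passed in siSNRPB against siCtrl. The skip junction was found in no other locus, while inclusion junctions were found in up to 6.

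RPLP1, whose protein binds the RPLP0 stalk in pairs with RPLP2, has a 75-nt coding exon (chr15:69453647-69453721) that was singled out after its reads were seen. Skip reads numbered 131 of 6599 in siSNRPA1, 4 of 2633 in siSNRPB and 15 of 4666 in siCtrl, or 1.99%, 0.152% and 0.321% in that order. The level was 0.97 in siSNRPA1, 1.00 in siSNRPB and 0.99 in siCtrl, so the exon did not pass, although Fisher's exact test gave an adjusted p of 2.64e-14 against siCtrl and 3.26e-12 against siSNRPB. RPL41 encodes one of the shortest known proteins, and its 23-nt coding exon had 26 exclusion reads of 2218 in siSNRPA1, 12 of 879 in siSNRPB and 0 of 1205 in siCtrl. These make up 1.17% in siSNRPA1 and 1.37% in siSNRPB, against 0% in siCtrl, where a count of 0 allows a share of up to 0.249%. Its levels of 0.87 in siSNRPA1, 0.86 in siSNRPB and 0.82 in siCtrl stood in the other direction from the reads, and it did not pass.

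RPS3 passed on very few skip reads. Its 95-nt coding exon (chr11:75402352-75402446) had 17 exclusion reads of 3191 in siSNRPA1, 0 of 1965 in siSNRPB and 0 of 3218 in siCtrl. The level was 0.40 in siSNRPA1, 0.57 in siSNRPB and 0.52 in siCtrl. It fell in siSNRPA1 against siCtrl (difference -0.12, adjusted p = 1.24e-04, Fisher's exact test) and was lower in siSNRPA1 than in siSNRPB (difference -0.17, adjusted p = 0.00406, Fisher's exact test). The 143-nt form shares these exclusion reads and was also lower in siSNRPA1 than in siSNRPB, with levels of 0.24 in siSNRPA1, 0.35 in siSNRPB and 0.30 in siCtrl. As a share of reads the difference of the 95-nt form was under 1 percentage point, 0.533% skip reads in siSNRPA1 against 0% in siCtrl, and neither form passed on that measure. The annotated transcript that skips this exon is marked for nonsense-mediated decay, and inclusion junctions were found in 3 other loci while the skip junction was found in none.

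Adjusted p alone, without the 0.1 rule, marked 17 of 55 ribosomal protein exons in siSNRPA1 against siCtrl (30.9%, beside 31.8% of all tested exons). It marked 20 of 43 in siSNRPB against siCtrl (46.5%, beside 38.0%) and 18 of 47 between the knockdowns (38.3%, beside 26.9%). Of these, 13 of 17, 17 of 20 and 13 of 18 had a level difference under 0.1.

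A further set of exons differed in level while almost no read skipped them. Among exons with at least 99% inclusion reads in both pools, the level differed by at least 0.1 in 11 of 66 in siSNRPA1 against siCtrl, 9 lower and 2 higher (16.7%, beside 19.6% of all such exons). In siSNRPB against siCtrl this held for 6 of 65, 1 lower and 5 higher (9.23%, beside 20.6%), and between the knockdowns for 13 of 64, 11 lower and 2 higher (20.3%, beside 20.5%).

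RPL27A, a large-subunit gene with SNORA3A and SNORA3B within the event, had a level of 0.59 in siSNRPA1, 0.83 in siSNRPB and 0.87 in siCtrl for its 70-nt form. Its exclusion reads numbered 1 of 3123 in siSNRPA1, 0 of 1604 in siSNRPB and 0 of 2981 in siCtrl. The RPL17 41-nt coding exon had levels of 0.65 in siSNRPA1, 0.88 in siSNRPB and 0.85 in siCtrl, with 1 exclusion read in siSNRPA1 and none in the others. The RPS3A 104-nt exon, of a small-subunit gene, went the other way, with levels of 0.87 in siSNRPA1, 0.84 in siSNRPB and 0.70 in siCtrl and at most 1 exclusion read in a pool. Coding exons of RPL4 and RPS2, singled out after their values were seen, had no exclusion read in any pool. The RPL4 exon (125 nt) had levels of 0.76 in siSNRPA1, 0.98 in siSNRPB and 0.99 in siCtrl. The RPS2 exon (160 nt) had levels of 0.76 in siSNRPA1, 1.00 in siSNRPB and 0.99 in siCtrl.

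In the authors' deposited table, 12 ribosomal protein exons of 118 had a Bayes factor of at least 10 with a difference of at least 0.1 in siSNRPA1 against siCtrl, 3 higher and 9 lower (10.2%, beside 7.18% of all exons, 2.28% higher and 4.9% lower). Of these 12, 8 had under 5 exclusion reads over both pools and so were not open to Fisher's test. For siSNRPB against siCtrl the authors' deposited table gave 9 of 118, 7 higher and 2 lower (7.63%, beside 7.87% of all exons, 2.38% higher and 5.49% lower), 6 of them with under 5 exclusion reads. The ribosomal protein exons were chosen with a read minimum in siCtrl and in a knockdown pool. All exons here had no such minimum and were the 37799 for siSNRPA1 and 32213 for siSNRPB with a deposited value. The percentages thus set exons of unlike read depth side by side, and the part of depth in them was not tested.

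Exons annotated only in transcripts marked for nonsense-mediated decay numbered 25 in 22 genes. Under 5% inclusion reads were seen in 12 of them in siSNRPA1, 12 in siSNRPB and 12 in siCtrl. At least 99% inclusion reads were seen in 8 in siSNRPA1, 7 in siSNRPB and 10 in siCtrl, the RPL17 67-nt exon among them in each pool. None passed in any comparison, with 14 tested against siCtrl in each knockdown and 15 between them. The authors' deposited values for siSNRPB against siCtrl were higher by 0.11 in RPS24 (245 nt, Bayes factor 5.85e+06). They were higher by 0.1 in RPL30 (262 nt, Bayes factor 27.9), which had 0 exclusion reads in both pools. By adjusted p alone, 0 of the decay-annotated exons had a higher and 2 a lower inclusion share in siSNRPA1 against siCtrl. Of all tested exons, 9.83% had a higher and 22.0% a lower share there. In siSNRPB against siCtrl 5 had a higher and 1 a lower inclusion share, beside 9.17% and 28.8% of all tested exons.

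Those 5 were exons of RPL5, RPL29, RPS2, RPS9 and RPS14. RPL29 (85 nt) had 1 inclusion read of 1001 in siSNRPA1, 8 of 416 in siSNRPB and 0 of 587 in siCtrl. RPS9 (172 nt), of a small-subunit gene, had 76 of 931 in siSNRPA1, 64 of 495 in siSNRPB and 37 of 554 in siCtrl, with levels of 0.02, 0.03 and 0.01 in that order. In all 5 the level in siSNRPB was at most 0.03.

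Of the decay-annotated exons, RPS27 (121 nt, chr1:153990914-153991034), a small-subunit gene, had 117 inclusion and 52 exclusion reads in siSNRPA1, 57 and 14 in siSNRPB, and 55 and 11 in siCtrl. Its levels were 0.09 in siSNRPA1, 0.16 in siSNRPB and 0.08 in siCtrl, and it did not pass. Others had nearly only exclusion reads, and whether copies supplied some of these was not tested. RPL35A (173 nt) had 20 inclusion reads of 6363 in siSNRPA1, 11 of 2398 in siSNRPB and 12 of 4046 in siCtrl. The RPL37A 35-nt exon had no inclusion read among 3201 in siSNRPA1, 1435 in siSNRPB and 2162 in siCtrl.

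The remaining exons with a siCtrl level between 0.1 and 0.9 and at least 50 informative reads there had at most 9 exclusion reads in any pool. RPS9 (449 nt) had levels of 0.55 in siSNRPA1, 0.73 in siSNRPB and 0.69 in siCtrl, with 7, 1 and 9 exclusion reads in that order, and did not pass. RPS3 (131 nt), with SNORD15A in the event, had levels of 0.76 in siSNRPA1, 0.84 in siSNRPB and 0.82 in siCtrl and 3, 2 and 2 exclusion reads. RPL13 (124 nt) had levels of 0.52 in siSNRPA1, 0.57 in siSNRPB and 0.66 in siCtrl without an exclusion read. The RPL18 exons of 29 and 87 nt, RPS20 (74 nt), RPL30 (262 nt) and RPLP1 (1641 nt) had at most 2.

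In the same range were RPS3 (154 and 188 nt), RPS3A (38, 111, 162 and 188 nt), RPL13 (110 nt), RPL17 (94 nt), RPS2 (713 nt) and RPS29 (194 nt), again with at most 1 exclusion read in a pool. Among the relatives, RPL7L1 (222 nt) had 343 inclusion and 7 exclusion reads in siSNRPA1, 115 and 2 in siSNRPB and 280 and 0 in siCtrl, with levels of 0.58, 0.56 and 0.67 in that order. RPL39L (64 nt) had no exclusion read and levels of 0.26 in siSNRPA1, 0.40 in siSNRPB and 0.34 in siCtrl. The RPS10-NUDT3 exon (111 nt), which is also an exon of NUDT3, had none either and levels of 0.31, 0.38 and 0.27 in the same order.

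Some reads of an event match neither of its isoforms, for example those within its introns. Their median share over ribosomal protein exons was 32.0% in siSNRPA1, 32.6% in siSNRPB and 32.2% in siCtrl. Over all exons with the same read minimum the medians were 58.4% in siSNRPA1, 50.2% in siSNRPB and 59.8% in siCtrl. The members' medians lay within 1 percentage point of each other, while that over all exons was lower in siSNRPB. The latter covered unlike sets, 20473 exons in siSNRPA1, 14534 in siSNRPB and 18953 in siCtrl. With at least 50 informative reads, the members' medians were 31.8% in siSNRPA1, 32.6% in siSNRPB and 29.5% in siCtrl. Those over all exons were then 53.7%, 44.4% and 53.4% in that order. The part of read depth was not tested. These medians were not tested.

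Other genes of protein synthesis were examined as 2 lists. Of 28 listed genes outside the ribosomal proteins whose transcripts start with a 5′ terminal oligopyrimidine tract, 27 were matched. In siSNRPA1 against siCtrl, 0 of their 46 tested exons rose and 6 fell (median difference -0.01), and in siSNRPB against siCtrl 3 of 36 rose and 2 fell (median -0.01). That is 13.0% and 13.9% passing, beside 17.0% and 21.3% of all tested exons in the same comparisons. EIF3K, a subunit of initiation factor eIF3, fell in both in its 78-nt exon, with levels of 0.35 in siSNRPA1, 0.16 in siSNRPB and 0.63 in siCtrl. EEF1D, a subunit of the elongation factor exchange complex, fell in both in its 72-nt exon, with levels of 0.76 in siSNRPA1, 0.78 in siSNRPB and 0.92 in siCtrl. Between the knockdowns 1 of 42 rose and 3 fell (9.52%, beside 14.7% of all tested exons). By the share of inclusion reads in place of the level, the balance turned: 7 were higher and 4 lower between the knockdowns, and 2 higher and 7 lower in siSNRPB against siCtrl.

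Of 122 listed ribosome assembly factors, 120 were matched. In siSNRPA1 against siCtrl 4 of 51 tested exons rose and 1 fell (median difference 0), and in siSNRPB against siCtrl 4 of 34 rose and 5 fell (median -0.015). That is 9.80% and 26.5% passing, beside the same 17.0% and 21.3%. DDX31, a nucleolar helicase, rose in both in its 104-nt exon, with levels of 0.19 in siSNRPA1, 0.25 in siSNRPB and 0.05 in siCtrl. DDX55, another helicase, fell in both in its 229-nt exon, with levels of 0.78 in siSNRPA1, 0.62 in siSNRPB and 0.97 in siCtrl. TCOF1, the Treacher Collins gene that serves ribosomal RNA transcription, fell in siSNRPB in its 111-nt exon, with 8 inclusion and 15 exclusion reads there against 99 and 25 in siCtrl. Between the knockdowns 3 of 41 rose and 0 fell (7.32%, beside 14.7%).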

How the data were processed

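Stranded total RNA libraries were made from MDA-LM2 cells, per the labels. STAR 2.7 and hg38 are named, per the submitters' processing notes, without their role. Per the file headers the values come from MISO, a program that estimates exon inclusion. Its version, settings, strand use and the way libraries were combined are not stated in those sources. The authors deposited 1 summary per group, in which the inclusion level is a fraction and reads are listed in classes that fit inclusion, exclusion, both or neither. The authors' 2 comparison tables hold the difference in level, deposited as a score between -1 and 1. The authors also deposited a Bayes factor there, a ratio of the evidence for and against a difference, per the file headers. All 44653 and 38112 deposited differences equalled the difference of the summaries. No per-sample columns were left unused (0).

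Where several events share a skipped exon, that with the most informative reads was kept (40658 exons). Testing required 20 or more informative reads per pool, and 5 or more of each class over the pair. Reads carry no molecular identifiers that the sources describe, so tests and intervals cover counting error only. Places, stop codons, copies and sequences came from GENCODE 29; junctions were searched with 20 bases from each side. Reads per 1000000 count a read once in each event it falls in. Named exons were those that passed, the 5 largest differences per comparison that did not pass, those with a siCtrl level of 0.1 to 0.9 and at least 50 informative reads, and the 3 genes with most reads in siCtrl. 1 gene is counted in the totals and not reported by name here. The members and lists were chosen with earlier results of these data known. The procedure was tested on simulated data with the level set equal to the read share and no variation between libraries. That run therefore does not bear on gaps between level and read share or on differences between libraries. Python 3.11.15, scipy 1.17.1, numpy 2.4.6, pandas 2.3.3 and matplotlib 3.10.9 were used.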

Additional observations from a re-analysis of the deposited data

Results flagged for a closer look

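These 5 results are listed because the 2 knockdowns differed in the direct test of siSNRPA1 against siSNRPB (Fisher's exact test, adjusted over 5082 exons). The differences in level, siSNRPA1 minus siSNRPB, were 0.11 for the RPS24 22-nt exon, -0.11 for the RPS3 143-nt exon, -0.17 for the RPS3 95-nt exon, 0.1 for the RPLP0 186-nt exon and -0.32 for the RPL17 88-nt exon. The RPS3 pair shares 17 exclusion reads in siSNRPA1 and 0 in siSNRPB, so it is 1 result in 2 forms. Further annotated events of the RPL17 88-nt exon, with other neighbouring exons, did not pass between the knockdowns. The siSNRPB pool rests on 1 library and siSNRPA1 on 3, and differences between libraries cannot be told apart from those between targets.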

How the results depend on the processing

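No paired analysis was possible because each group has 1 pooled set of values, and for the same reason no replicate could be left out. The numbers of passing ribosomal protein exons were 4 in siSNRPA1 against siCtrl, 3 in siSNRPB against siCtrl and 5 between the knockdowns. With a difference of at least 0.2 they were 2 in siSNRPA1 against siCtrl and 1 between the knockdowns. Counted over all annotated events they were 8 in siSNRPA1 and 7 in siSNRPB against siCtrl. No further exon passed there, as the added calls were other events of the RPL17 98-nt and 88-nt forms. With 1 exon per gene, the one with most reads, the numbers of passing exons were 1, 0 and 1 in the 3 comparisons. For the 0, the Fisher p was under 0.05 unadjusted in 10 of 23 exons, and adjusted in 10. Without exons lying opposite another gene, RPL17 among them, 2 were left in siSNRPA1 and 1 in siSNRPB against siCtrl. With read counts divided by 2, and without exons whose junctions occur in a copy, 2 were left in each case between the knockdowns. The authors' Bayes factor gave 12 and 9 against siCtrl. All other alternatives for these counts stayed within 1.5 times. For the 12 exon results named, 79 of 94 alternative values kept their call, 15 lost it and 0 changed sign. By read share the RPS3 and RPLP0 exons lost it. Settings that only drop or add other exons leave an exon's own reads and level as they were. Many kept calls could therefore hardly change, and no value was counted where a setting left the exon itself untested. The 79 is thus no measure of how firm the results are.

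Reads over ribosomal protein events per 1000000 were 57389 in siSNRPA1, 54846 in siSNRPB and 59338 in siCtrl with all annotated events, and 73987, 70190 and 74345 in that order with informative reads only. Without genes that have a processed copy they were 224, 248 and 226, from 4 genes, so siSNRPB was then highest and not lowest. Those 4 are RPL39L, RPS10-NUDT3, RPS19BP1 and RPS27L, so this says nothing of the other ribosomal protein genes, which all have a copy. The median share of reads that fit neither isoform stayed within the spread of the events. By read share, an alternative chosen after seeing the data, 9 exons of the oligopyrimidine list passed in siSNRPB against siCtrl (2 higher, 7 lower). Between the knockdowns 11 of that list passed (7 higher, 4 lower), and 5 of the assembly factors. No rate over all tested exons by read share stands beside these counts. Depth limits RPL34 and exons with under 5 exclusion reads.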

Other observations

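The RPS29 event held more reads that fit neither isoform than any other event of the series, in every pool. RPS29 is a small-subunit gene, and its event spans chr14:49585950-49598690 on the minus strand. Such reads numbered 4467983 in siSNRPA1, 1690596 in siSNRPB and 2820840 in siCtrl, where the next event had 2937033 in siSNRPA1, 1101601 in siSNRPB and 1819340 in siCtrl. Informative reads of the RPS29 exon numbered only 203 in siSNRPA1, 54 in siSNRPB and 161 in siCtrl, all of them inclusion reads. RN7SL1, which encodes the 7SL RNA of the signal recognition particle, lies within the event on the plus strand at chr14:49586580-49586878. Its part in these reads was not tested. Levels of the exon were 0.22 in siSNRPA1, 0.48 in siSNRPB and 0.27 in siCtrl.

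RPS10, a small-subunit gene, has a 100-nt exon with 7 inclusion reads of 2513 in siSNRPA1, 20 of 810 in siSNRPB and 4 of 1486 in siCtrl. Its level was 0.00 in each pool, and Fisher's exact test gave adjusted p-values of 2.58e-05 for siSNRPB against siCtrl and 3.14e-06 between the knockdowns, without the exon passing the 0.1 rule.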
